A study of Mus musculus with 2 samples.

Results

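Krt5, Krt14, Krt12 and Krt15 encode the keratins by which basal and corneal epithelial cells are usually recognised. They were taken by symbol from the count matrix, as 4 of its 17492 genes and 4 of its 45 keratin genes, and were followed over each cell label and both groups. Keratins are the intermediate filament proteins of epithelia. A filament is built from pairs of 1 acidic type I and 1 basic type II chain, so that a cell needs both kinds. Krt5 is a type II keratin of basal cells in stratified epithelia. Krt14, Krt12 and Krt15 are type I: Krt14 is the usual partner of Krt5 in basal keratinocytes, Krt12 is the keratin that sets corneal epithelium apart from other stratified epithelia, and Krt15 is found in basal cells of many stratified epithelia, the limbus at the corneal edge and the conjunctiva included.

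The data came from single-cell RNA sequencing of corneal epithelium from male C57BL/6J mice aged 20 weeks. The Diabetic library held cells of 4 corneas from 2 mice that had been given 160 mg/kg of streptozotocin, a toxin of the insulin-producing beta cells, in a single injection. Weekly readings of their blood glucose had stayed over 250 mg/dL during a study of 12 weeks. The Control library held cells of 4 corneas from 2 mice given the citrate buffer in which streptozotocin is dissolved. Each group is thus 1 pool and 1 library, with no replicate, and streptozotocin exposure and raised glucose cannot be told apart in it. All intervals below are 95% intervals for counting error only, and no p-value was computed.

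The Diabetic library held 8203 cells and 171030636 unique molecular identifiers (UMIs, 1 per captured RNA molecule), and the Control library 9605 cells and 196359192 UMIs, with medians of 17677 and 16487 UMIs per cell. The authors' table gives each cell 1 of 8 labels, which are Wing, Basal, Squam, Conj, LSC, TAC1, TAC2 and Immune. What the shortened names stand for is not given in the sources used here. Fixed markers were highest in their own label for 5 of 5 TAC2 genes in both libraries, 4 of 5 Conj genes in both, 3 of 4 Squam genes in both, and 3 of 5 Diabetic and 4 of 5 Control LSC genes. The 4 Conj genes were all keratins (Krt4, Krt13, Krt19 and Krt8). Cyp2f2, the only other Conj marker in the matrix, was not highest there in either library. The markers set the Basal label apart less well, with 2 of 4 highest there in the Diabetic and 1 of 4 in the Control library. Col17a1 and Wnt10a were highest in another label in both libraries. Of the TAC1 markers 2 of 4 were highest there in both libraries, and Rrm2 and Tyms were not. Labels had been made from the same RNA, keratins included, so a keratin's level by label is a description. Each of 29 clusters made again without any keratin gene was given the most frequent of the authors' labels among its cells. In this way 86.7% of cells kept their label, which is no independent check of the labels. The clusters fitted LSC and TAC2 less closely: 393 LSC cells stayed and 91 went to Conj and 41 to Basal, and 961 TAC2 cells stayed and 274 went to Basal. Of Wing cells 4069 stayed and 563 went to Squam. The libraries shared 18 barcode sequences, and without those cells no keratin ratio given below crossed the rule of size.

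Levels are given in CPM, the UMIs of a gene relative to all UMIs summed over the cells of a label and library, on a scale where 1 UMI of 5000 is 200 CPM. The assay counts each molecule at its 3′ end whatever the length of the transcript, but capture can differ between genes. Differences between labels and libraries are therefore read gene by gene. Where genes are set against each other below, the values are shares or ratios of captured UMIs and not of RNA in the cell. Calls of higher or lower in diabetic cells followed a rule of size. The ratio had to reach 1.5 either way with at least 50 UMIs in all, and the Poisson intervals of the levels had to stand apart. In RNA summed over cells, fewer cells that express a gene and less RNA per cell cannot be told apart.

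All 4 genes lie on the minus strand of the mm10 (GRCm38) assembly. Krt12 spans 99415666 to 99422259 on chromosome 11, Krt15 100131758 to 100135928 and Krt14 100203162 to 100207548 on the same chromosome, within the cluster of type I keratin genes. Krt5 spans 101707070 to 101712898 on chromosome 15, within the type II cluster. The 250 bases before the RefSeq starts of Krt5 and Krt12 (RefSeq, GRCm38.p6, minus strand, 5′ to 3′) are shown because these genes were highest in the same label and had the closest relation across cells of any pair of the 4 in Basal and Squam cells. Capitals mark the TATAAA of Krt12 at position -29 and the GATAAA of Krt5 at position -30, counted back from the start.
Krt5, chr15:101712906-101713155: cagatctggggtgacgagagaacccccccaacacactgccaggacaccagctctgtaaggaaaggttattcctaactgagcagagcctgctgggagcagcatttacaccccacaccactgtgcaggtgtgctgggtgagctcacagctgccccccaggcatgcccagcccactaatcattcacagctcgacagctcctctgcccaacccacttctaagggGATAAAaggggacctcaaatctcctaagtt
Krt12, chr11:99422260-99422509: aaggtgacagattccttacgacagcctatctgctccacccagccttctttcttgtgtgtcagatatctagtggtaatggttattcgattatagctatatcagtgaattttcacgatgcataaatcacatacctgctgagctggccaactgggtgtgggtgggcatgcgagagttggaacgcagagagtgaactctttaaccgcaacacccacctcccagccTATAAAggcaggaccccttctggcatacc
On the gene's own strand, 45 to 20 bases before the start, TATAAA stood in 2.36% and GATAAA in 0.651% of 27025 RefSeq promoters. CACCC, a core of the sites that Krüppel-like factors bind, was present on either strand in 51.3% of promoters, and had 3 matches before Krt5 and 4 before Krt12. TGANTCA, GCCNNNGGC and GGGCGG, the motifs of AP-1, AP-2 and Sp1, had no match in either stretch, and stood in 6.87%, 13.6% and 32.9% of promoters in that order. The RefSeq entry of Krt14 starts 1518 bases inside the GENCODE gene and is not shown, and Krt15 had no entry.

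Over all cells, 1 of the 4 keratins was called in either direction, Krt14, which was higher in diabetic cells. Krt14 was at 447 CPM (444 to 450.2) in the Diabetic library and 249 CPM (247 to 252) in the Control library, a ratio of 1.79 (1.77 to 1.81). Krt5 was at 7828.5 CPM in diabetic and 8077.5 CPM in control cells, a ratio of 0.969 (0.967 to 0.971). Krt12, the most abundant of the 4 in UMIs, was at 21165 CPM in diabetic and 21398 CPM in control cells, a ratio of 0.989 (0.988 to 0.991). Krt15 was at 5172 CPM in diabetic and 5036 CPM in control cells, a ratio of 1.03 (1.02 to 1.03). The levels of Krt5, Krt12 and Krt15 were thus close in the libraries when all cells were summed. Of 13846 measured genes, 8.78% were called, 5.98% higher and 2.8% lower, which are 828 and 387 genes, and with median-of-ratios scaling 632 and 497. The 4 keratins together took 3.46% of diabetic and 3.48% of control UMIs.

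The Krt14 difference over all cells was not the same within labels. With the same label weights in both libraries, its log2 ratio was 0.34 against 0.84 as summed, and it did not pass the rule. LSC cells, which carry most Krt14 per UMI, made up 4.04% of diabetic and 2.10% of control cells. They held 24.0% of the Krt14 UMIs of the Diabetic library and 13.4% of those of the Control library. Of the difference in Krt14 relative to each library's total, 37.2% lay in LSC cells, 27.3% in TAC2, 19.8% in Basal and 10.1% in TAC1 cells. TAC2 cells were also deeper in the Diabetic library, with a median of 24500 UMIs against 16629 in control cells, so that each weighed more in the sum.

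**Figure D1:**
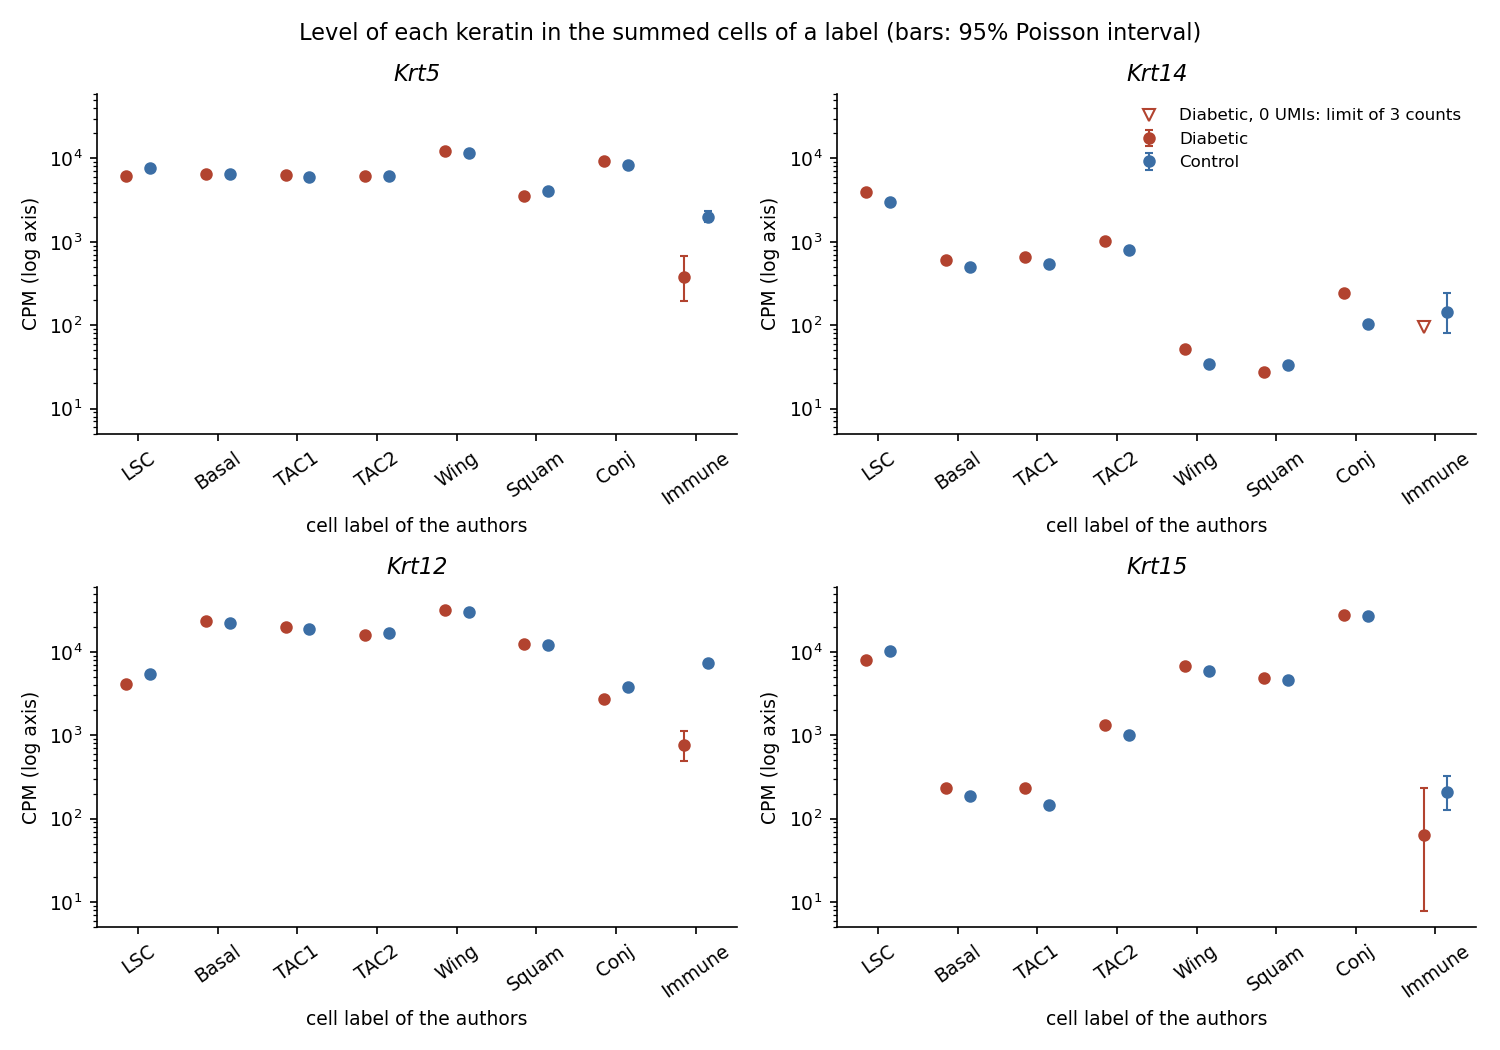
CPM of Krt5, Krt14, Krt12 and Krt15 (log axis) in the summed cells of each label, Diabetic left and Control right, with 95% Poisson intervals and an open triangle for 0 UMIs, set at the limit of 3 counts. The order of the epithelial labels is nearly the same in both libraries, and the libraries differ most among Immune cells, of which there are 10 in the Diabetic and 26 in the Control library.

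Krt5 varied least over the epithelial labels. In diabetic cells it was at 12114 CPM in Wing, 9269 in Conj, 6479 in Basal, 6404 in TAC1, 6206 in TAC2, 6069 in LSC and 3518 CPM in Squam cells. In control cells it was at 11540 CPM in Wing, 8283 in Conj, 7578 in LSC, 6535 in Basal, 6132 in TAC2, 5972 in TAC1 and 4073 CPM in Squam cells. Its highest label stood 3.44-fold above its lowest in the Diabetic library and 2.83-fold in the Control library, and LSC took the sixth place in diabetic but the third in control cells. All neighbours in this order had Poisson intervals that did not overlap. No label passed the rule of size for Krt5. The ratio was lowest in LSC cells, at 0.801 (0.786 to 0.816), and highest in Conj cells, at 1.12 (1.11 to 1.13). With clusters made without keratin genes the log2 ratio in LSC cells was 0.033, against -0.32 with the authors' labels.

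Krt12 was lowest in LSC and Conj cells among the 7 epithelial labels. It was highest in Wing cells, with 32219 CPM in diabetic and 30116 CPM in control cells. Basal cells had 23664 CPM in the Diabetic and 21940 CPM in the Control library, TAC1 cells 19751 and 18614 CPM, and TAC2 cells 15960 and 16948 CPM in the same order. Squam cells had 12520 CPM in diabetic and 12230 CPM in control cells. LSC cells had 4120 CPM in diabetic and 5443 CPM in control cells, and Conj cells 2691 and 3775 CPM in the same order. The order of the 7 labels was the same in both libraries. Its ratio lay between 0.942 in TAC2 and 1.08 in Basal cells in the labels other than LSC and Conj, and no label passed the rule.

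Krt12 was lower in the diabetic cells of the labels where it was lowest. The ratio was 0.757 (0.740 to 0.775) in LSC cells and 0.713 (0.703 to 0.724) in Conj cells, short of the rule. The level of Krt12 in cells that should lack it moved with these values. In Immune cells Krt12 was at 764 CPM (490 to 1137) in diabetic and 7411 CPM (6876 to 7976) in control cells, from 10 and 26 cells with median depths of 3044 and 2424 UMIs. The 5% of Conj cells with least Krt12 had at most 35.7 CPM in the Diabetic library and 128 CPM in the Control library. For LSC cells that limit was 71.6 CPM in diabetic and 217 CPM in control cells. The part of this in the Krt12 ratio of LSC and Conj cells was not tested.

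The libraries differed in how many cells of those labels held few Krt12 UMIs. After every cell had been thinned to 5000 UMIs, where 1 UMI is worth 200 CPM, 41.0% (35.4 to 46.9) of 295 diabetic LSC cells and 13.0% (8.34 to 19.04) of 169 control LSC cells held 0 or 1 Krt12 UMI. Cells with 2 to 9 UMIs were 25.1% of diabetic and 47.9% of control LSC cells. Cells with 10 to 49 UMIs were 15.9% of diabetic LSC cells, where Krt12 was at 4875 CPM, and 20.1% of control LSC cells, where it was at 5820.4 CPM. Cells with at least 50 Krt12 UMIs were 18.0% (13.8 to 22.8) of diabetic and 18.9% (13.3 to 25.7) of control LSC cells, with intervals that overlapped. In the Conj label, 47.9% of diabetic and 29.0% of control cells held 0 or 1 Krt12 UMI, 18.6% (15.04 to 22.6) of diabetic and 24.6% (20.7 to 28.8) of control cells held 10 to 49, and 10% (7.33 to 13.2) of diabetic and 12.8% (9.89 to 16.3) of control cells held at least 50. The median Immune cell, which should not make Krt12, had 774 CPM of it in the Diabetic and 2328 CPM in the Control library. Immune cells were shallower than LSC and Conj cells, so this level sets no exact background. The shares of cells with few Krt12 UMIs are not read as expression. In both labels the cells with fewer than 10 Krt12 UMIs had only 122 to 736 CPM of it in the Diabetic and 243 to 860 CPM in the Control library, so that they add little to either sum.

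**Figure D2:**
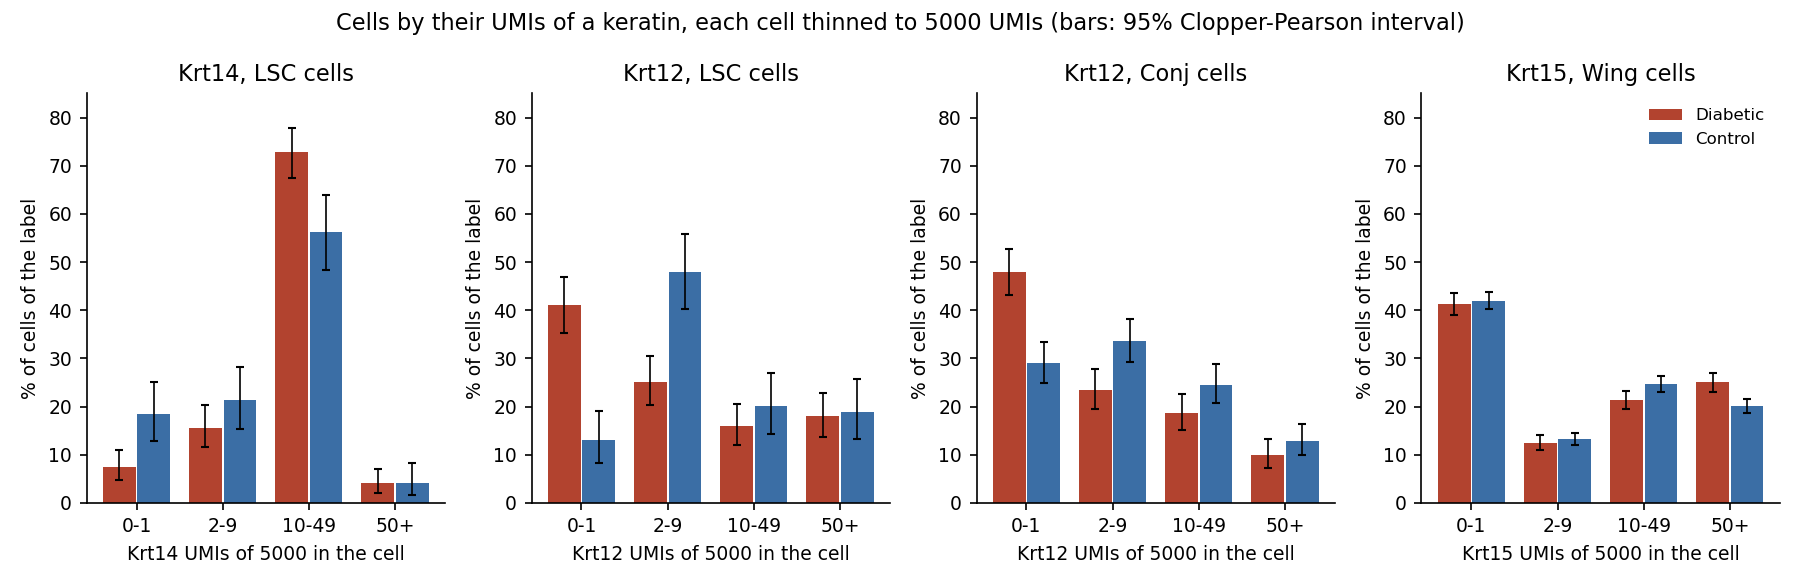
Share of a label's cells by their UMIs of a keratin, with every cell thinned to 5000 UMIs, Diabetic left and Control right, with 95% Clopper-Pearson intervals. For Krt12 in LSC and Conj cells the libraries differ at 0 to 9 UMIs and overlap at 50 or more, while Krt14 in LSC cells shifts into the group of 10 to 49 UMIs in diabetic cells.

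Krt14 was highest in LSC cells and lowest in Squam cells. In diabetic cells it was at 3978 CPM in LSC, 1023 in TAC2, 649.7 in TAC1, 609 in Basal, 245 in Conj, 52.3 in Wing and 27.6 CPM in Squam cells. In control cells it was at 3016 CPM in LSC, 788 in TAC2, 539 in TAC1, 504 in Basal, 104 in Conj, 34.4 in Wing and 33.0 CPM in Squam cells. The order was the same in both libraries, with a range of 144-fold in diabetic and 91.4-fold in control cells, and only Wing and Squam cells of the Control library had overlapping intervals among epithelial neighbours. Immune cells had 0 Krt14 UMIs of 31401 in the Diabetic library, which allows up to 95.5 CPM when the limit is set at 3 counts, and 146 CPM in the Control library. Levels in Wing and Squam cells of both libraries, and in Conj cells of the Control library, were under that 146 CPM. It came from 14 UMIs in 26 control Immune cells with a median depth of 2424 UMIs. The median depth was 19899.5 UMIs in control Wing, 22382 in control Squam and 22157 in control Conj cells. At such unlike depths the Immune level sets no background for these labels. The part of RNA from other cells in them was not tested.

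Krt14 was higher in diabetic cells of 6 of the 7 epithelial labels by ratio, and 2 of these passed the rule. In Conj cells the ratio was 2.35 (2.19 to 2.52), where 2.52% of genes were called higher, 1.95% lower and 4.47% either way. In Wing cells it was 1.52 (1.44 to 1.60), where 3.93% of genes were called higher, 2.59% lower and 6.52% either way. The ratio was 1.32 (1.28 to 1.36) in LSC, 1.30 (1.27 to 1.33) in TAC2, 1.21 in Basal and 1.205 in TAC1 cells. In Squam cells it was 0.837 (0.767 to 0.914).

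The Conj value came from few cells, yet passed the rule without them. The 5 listed LSC markers, summed, were also higher in Conj cells, at 384 CPM in diabetic and 212 CPM in control cells. The part of LSC-like cells or LSC RNA in the Krt14 value of Conj cells was not tested. The 10 cells with most Krt14 UMIs held 41.7% of the Krt14 UMIs of diabetic and 44.5% of those of control Conj cells. Without them Krt14 was at 147 CPM in diabetic and 59.8 CPM in control Conj cells, a ratio of 2.46. At 5000 UMIs, 26.7% of diabetic and 17.5% of control Conj cells had at least 1 Krt14 UMI. Among Conj cells grouped by Krt12, the Krt14 ratio was 3.03 at 0 or 1 Krt12 UMI, 1.20 (1.03 to 1.39) at 2 to 9, 2.77 at 10 to 49 and 2.57 at 50 or more. In the group of 2 to 9 UMIs, which held 23.5% of diabetic and 33.6% of control Conj cells, Krt14 was at 135 CPM in diabetic and 112 CPM in control cells, short of the rule.

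The Wing value was at the edge of the rule. Its log2 ratio was 0.60 and fell short of the rule with median-of-ratios scaling (0.55), without the 10 cells with most Krt14 UMIs of each library (0.52), with clusters made without keratin genes (0.43), after thinning (0.32) and with equal weight for every cell (0.23). In Squam cells the log2 ratio was -0.26, but -0.77 with clusters made without keratin genes and -0.66 without the 10 cells with most Krt14 UMIs, and both of these passed the rule as lower. With the authors' labels, 7.75% of all measured genes were called lower and 1.79% higher in Squam cells.

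In LSC cells Krt14 did not pass the rule, though more cells held it. At 5000 UMIs, 76.9% of diabetic and 60.4% of control LSC cells had at least 10 Krt14 UMIs, and 7.46% (4.73 to 11.1) of diabetic and 18.3% (12.8 to 25.02) of control cells had 0 or 1. Krt14 was higher in diabetic LSC cells at every Krt12 level. In LSC cells with 0 or 1 Krt12 UMI it was at 4732 CPM in diabetic and 4146 CPM in control cells, a ratio of 1.14. In those with at least 50 Krt12 UMIs it was at 2200.1 CPM in diabetic and 1311 CPM in control cells, a ratio of 1.68 (1.53 to 1.84) from 53 diabetic and 32 control cells. In both libraries Krt14 was thus lower in the LSC cells richest in Krt12 than in those with least of it. The stromal gene Dcn, the 1 of 5 listed keratocyte markers that the matrix holds, was at 23.7 CPM in diabetic and 13.3 CPM in control LSC cells, and its part in these values was not tested.

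Reads of Krt14 can be hard to tell from those of a close relative. Of the 31-base words in the last 500 bases of its transcript, 81 of 470 also occur in another gene, and all 81 in Krt17, a type I keratin of wounded skin and hair follicles. Krt5, Krt12 and Krt15 had no such shared word. Krt17 was itself higher over all diabetic cells, at 36.9 CPM against 15.2 CPM in control cells. In Conj cells it was at 269 CPM in diabetic and 149 CPM in control cells. It was also called higher in TAC1 and TAC2 cells. It was called lower in Squam cells, at 1.57 CPM in diabetic and 4.54 CPM in control cells. It was not called in LSC, Basal or Wing cells, and in Wing cells was at 3.49 CPM in diabetic and 2.35 CPM in control cells. How reads that fit both genes were counted is not given in the sources used here.

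**Figure D3:**
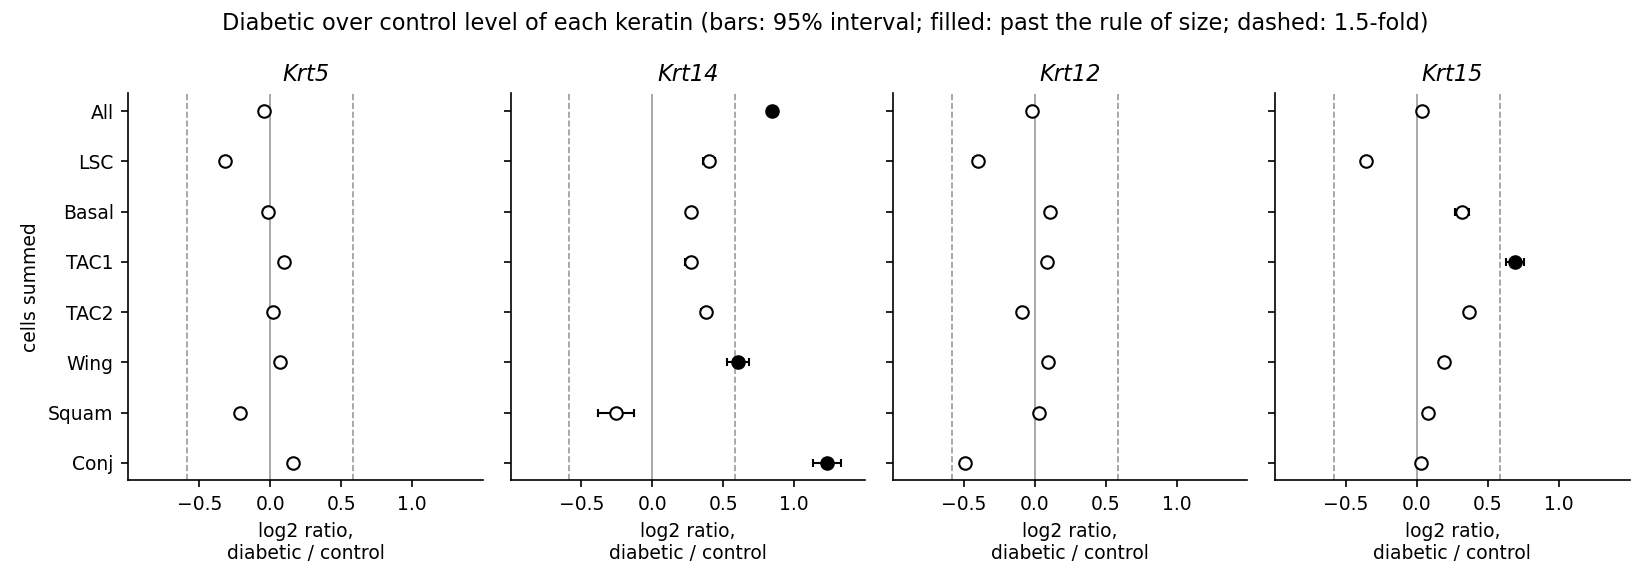
Log2 ratio of diabetic over control CPM of each keratin over all cells and in each epithelial label, with 95% intervals. Filled points passed the rule of size: Krt14 over all cells (0.84), in Wing (0.60) and in Conj cells (1.23), and Krt15 in TAC1 cells (0.69).

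Krt15 was highest in Conj cells. It was at 27484 CPM there in diabetic and 26994 CPM in control cells. LSC cells had 7937 CPM in the Diabetic and 10177 CPM in the Control library, Wing cells 6701 and 5870.4 CPM, and Squam cells 4913 and 4659 CPM in the same order. TAC2 cells had 1317 CPM in diabetic and 1021 CPM in control cells. Basal and TAC1 cells were lowest, with 235 and 236 CPM in diabetic and 189 and 146 CPM in control cells. The levels of Basal and TAC1 cells had overlapping intervals in the Diabetic library. Control Immune cells, which should lack Krt15, had 208 CPM (127 to 321.5), from 20 UMIs in 26 cells. Their median depth was 2424 UMIs, against 13146 in control Basal and 16938 in control TAC1 cells. At such unlike depths their CPM sets no background for the other labels. The part of RNA from other cells in these levels was not tested.

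Of the 7 labels, 1 was called for Krt15, TAC1, where diabetic cells were higher with a ratio of 1.62 (1.54 to 1.69). In TAC1 cells 1.7% of genes were called higher, 1.52% lower and 3.23% either way. The call rested on few cells. The 10 cells with most Krt15 held 29.4% of its UMIs in diabetic and 19.1% in control TAC1 cells, and without them the log2 ratio was 0.50, against 0.69 with them, short of the rule. The median TAC1 cell had 47.5 CPM in the Diabetic and 57.7 CPM in the Control library. At median depths of 19814 UMIs in diabetic and 16938 UMIs in control TAC1 cells, both are near 1 UMI. These medians thus give no direction. At 5000 UMIs, 34.5% of diabetic and 34.6% of control TAC1 cells had at least 1 Krt15 UMI.

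TAC2 cells held a similar few cells rich in Krt15. In TAC2 cells the ratio was 1.29 (1.26 to 1.32), short of the rule, where 2.21% of genes were called higher. Without likely doublets the log2 ratio was 0.84 and without the 10 cells with most Krt15 it was 0.74, against 0.37 with all cells, and both of these passed the rule. Those 10 cells held 30.4% of the Krt15 UMIs of diabetic and 45.9% of those of control TAC2 cells. At 5000 UMIs, 14.3% of diabetic and 8.84% of control TAC2 cells had at least 10 Krt15 UMIs.

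In LSC cells the Krt15 ratio was 0.780 (0.767 to 0.793), short of the rule. With clusters made without keratin genes its log2 ratio was 0.093, against -0.36 with the authors' labels, so the direction followed the labels used. In Basal cells the log2 ratio was 0.32, and 0.67 in the clusters made without keratin genes, which passed the rule. In the authors' LSC cells none of the 4 keratins was called, where 5.24% of genes were, 2.63% higher and 2.61% lower. None was called in Basal cells, where 5.01% of genes were, 2.63% higher and 2.38% lower. None was called in TAC2 cells, where 3.57% of genes were, 2.21% higher and 1.35% lower, or in Squam cells, where 9.54% of genes were, 1.79% higher and 7.75% lower.

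Which type I keratin had most UMIs in a cell set the labels apart. At 5000 UMIs, Krt12 led in 99.9% of diabetic and 100% of control Basal cells. Krt15 led in 96.5% of diabetic and 96.0% of control Conj cells. LSC cells were mixed: Krt14 led in 41.0% (35.4 to 46.9) of diabetic and 35.5% (28.3 to 43.2) of control cells, Krt15 in 39.3% and 44.97% and Krt12 in 18.6% and 16.6% in the same order. Cells with at least 10 UMIs of both Krt14 and Krt15 were 58.6% (52.8 to 64.3) of diabetic and 47.3% (39.6 to 55.2) of control LSC cells. All these intervals of LSC shares overlapped between the libraries. In TAC2 cells Krt14 led in 2.60% of diabetic and 0.818% of control cells, and Krt15 in 5.92% and 3.76% in the same order.

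**Figure D4:**
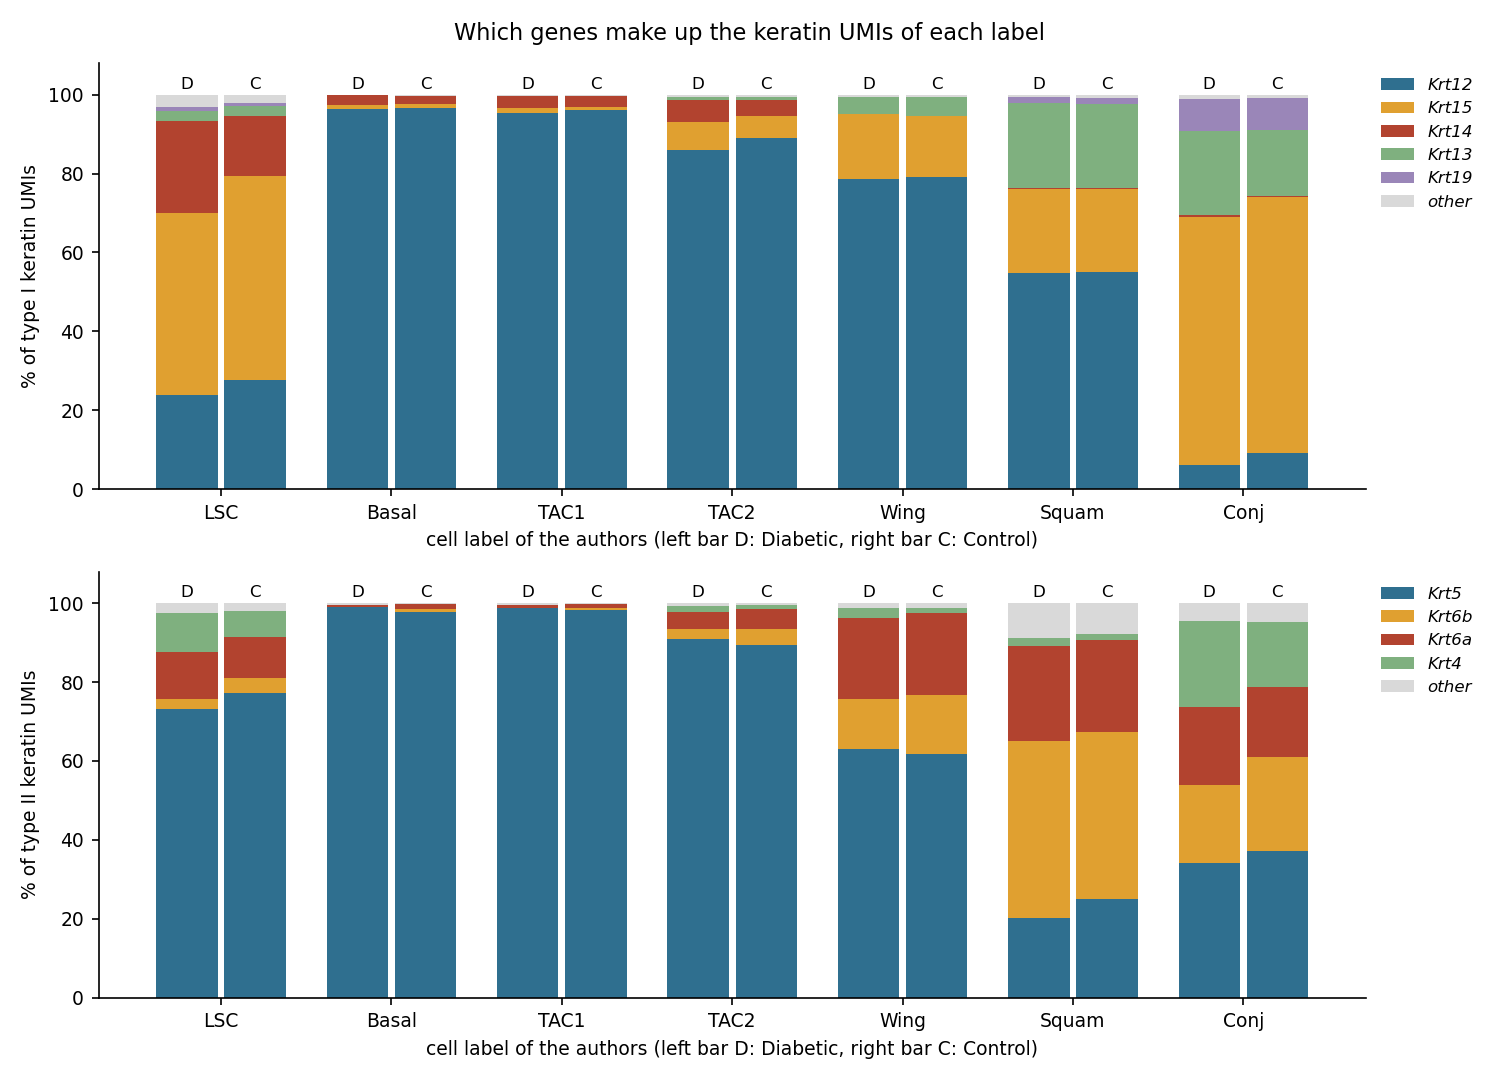
Share of each gene in the type I (upper) and type II (lower) keratin UMIs of each epithelial label, left bars Diabetic and right bars Control. Genes drawn by name are Krt12, Krt15, Krt14, Krt13 and Krt19 for type I and Krt5, Krt6b, Krt6a and Krt4 for type II. Every other keratin is counted as other. So are Krt13, Krt19, Krt6b, Krt6a and Krt4 where they are under 0.5% of a bar. Krt12 and Krt5 make up nearly all of the Basal and TAC1 bars, while Krt15 leads in Conj and LSC cells and Krt6b in Squam cells.

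Among all keratin UMIs, the 4 genes made up 99.6% in diabetic and 99.3% in control Basal cells. They made up 52.0% in diabetic and 54.6% in control Squam cells, where Krt13, Krt6a and Krt6b took up most of the rest. Krt5 held 99.0% of type II UMIs in diabetic and 97.8% in control Basal cells. In Squam cells it held 20.1% of type II UMIs in the Diabetic and 25.1% in the Control library. Krt12 held 6.15% of type I UMIs in diabetic and 9.08% in control Conj cells. Krt14 held 23.1% of type I UMIs in diabetic and 15.3% in control LSC cells.

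The balance of the 3 type I keratins to Krt5 differed more between labels than between libraries. Over all cells there were 3.42 UMIs of Krt12, Krt14 and Krt15 for each of Krt5 in the Diabetic library and 3.30 in the Control library. It was lowest in LSC cells, at 2.64 in diabetic and 2.46 in control cells. It was 3.78 in diabetic and 3.46 in control Basal cells, 3.28 and 3.73 in Conj cells, and 4.96 and 4.16 in Squam cells in the same order. With every keratin counted, the balance of type I to type II UMIs in Squam cells was 1.31 in diabetic and 1.37 in control cells. The higher balance over Krt5 in diabetic Squam cells thus went with a lower Krt5 and not with a higher balance over all type II keratins. In the median cell at 5000 UMIs the balance over Krt5 was 3.89 in diabetic and 3.54 in control Basal cells.

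Across cells of a label, the 4 genes were related in pairs. The correlations are over thinned cells that share a library, so they describe these cells only. Krt5 and Krt12 went together, most closely in Squam cells, with a Spearman rho of 0.79 over 1308 diabetic and 0.80 over 1541 control cells. In Basal cells their rho was 0.49 in diabetic and 0.61 in control cells. In LSC cells Krt5 went with Krt15, with a rho of 0.55 in diabetic and 0.77 in control cells, and against Krt14, with -0.23 in diabetic and -0.55 in control cells. Krt12 and Krt15 went against each other in Wing cells, with -0.49 over 1909 diabetic and -0.51 over 2773 control cells.

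Wing cells ranged from those with much Krt12 and little Krt15 to those with both. Cells with 0 or 1 Krt15 UMI of 5000 were 41.2% of diabetic and 42.01% of control Wing cells. Cells with at least 50 were 25.04% (23.1 to 27.0) of diabetic and 20.1% (18.6 to 21.7) of control Wing cells. In the Krt15-poor cells Krt12 was at 38249 CPM in diabetic and 36650 CPM in control cells, and in the Krt15-rich cells at 25163 CPM in diabetic and 23300 CPM in control cells. Krt13, a type I keratin of moist stratified linings, was at 451 CPM in diabetic and 679 CPM in control cells of the poor group, and at 4187 CPM in diabetic and 3517 CPM in control cells of the rich group. Krt4, its type II partner, was at 6.43 CPM in diabetic and 9.40 CPM in control Krt15-poor cells, and at 1619 CPM in diabetic and 887 CPM in control Krt15-rich cells. Krt5 stayed between 10908 and 13118 CPM in diabetic and between 11039 and 12123 CPM in control cells over the same groups.

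**Figure D5:**
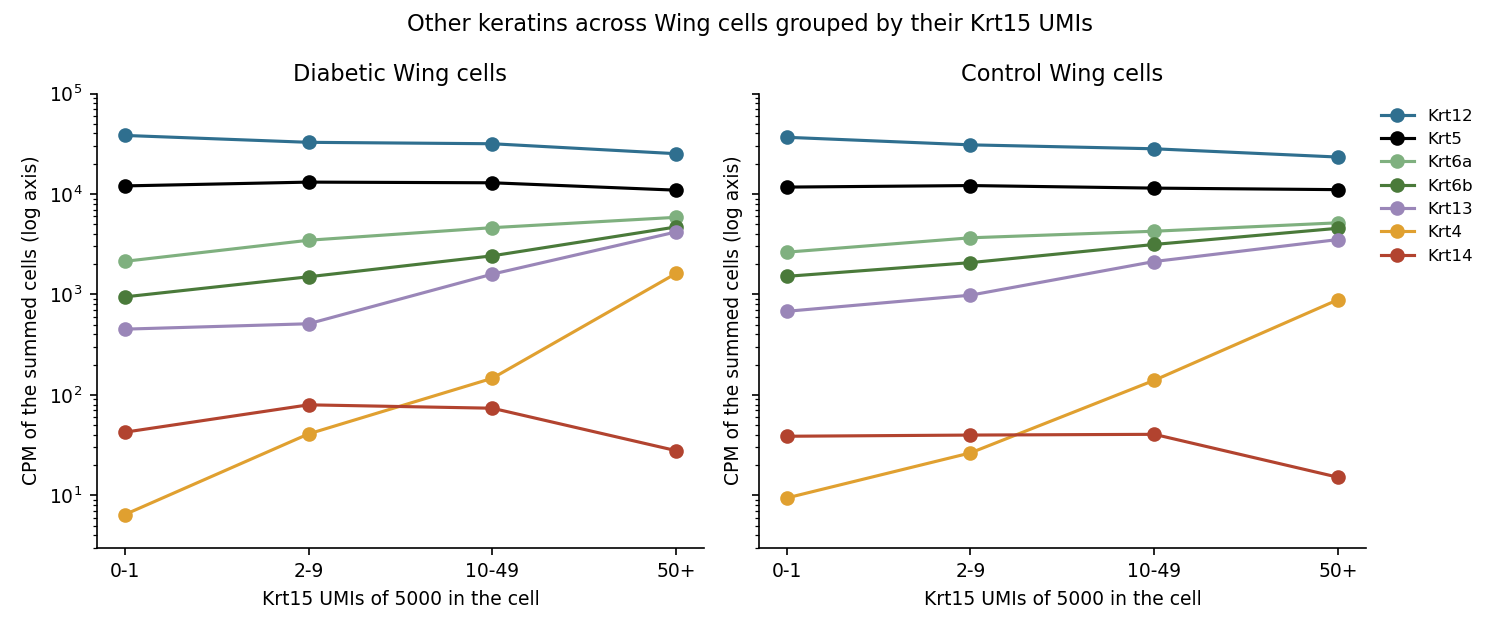
CPM (log axis) of other keratins in Wing cells grouped by their Krt15 UMIs of 5000, Diabetic left and Control right. Krt12 is lower and Krt13, Krt4, Krt6a and Krt6b are higher in cells with more Krt15, and Krt5 lies between 10908 and 13118 CPM throughout.

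Genes whose levels over the 14 sums of 7 labels and 2 libraries were most like each keratin's were ranked by Pearson correlation of log2(CPM + 10) among 6768 genes. For Krt15 these were Krt4 (r = 0.98), Ppp1cb, Mfsd6, Cldn3 and Ctsc, and Krt4 and Cldn3, a tight junction claudin, were highest in Conj cells of both libraries. For Krt5 they were Adam15 (r = 0.96), Fbxo9, Akap9, Dsp and Lypd3. Dsp encodes desmoplakin, which ties keratin filaments to desmosomes, and was at 1570.5 CPM in diabetic and 1410.3 CPM in control Wing cells. For Krt12 they were Slco3a1 (r = 0.98), Fxyd4, Ppp1r3c, Bnip3l and Emx2, all highest in Wing cells. For Krt14 they were Serpinb6a (r = 0.98), Fgfr3, Gstm1, Tns3 and Ptpn14, all highest in LSC cells, where the growth factor receptor gene Fgfr3 was at 133 CPM in diabetic and 84.9 CPM in control cells. Among the 4 keratins themselves, the correlation largest in size was that of Krt12 with Krt15, at -0.66, and that of Krt5 with Krt12 was 0.044.

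Of the 41 other keratin genes, 25 were measured over all cells, of which 5 were higher and 1 lower, where 5.98% of all measured genes were higher and 2.8% lower. Their median log2 ratio was 0.076, against 0.066 for all measured genes. Higher were Krt4, at 633 CPM in diabetic and 369 CPM in control cells, and Krt17, Krt18, Krt32 and Krt75, each under 40 CPM in both libraries. Krt23 was lower, at 19.2 CPM in diabetic and 34.97 CPM in control cells. Krt4 was called higher in 5 of the 7 labels, and in Conj cells it was at 5909 CPM in diabetic and 3661 CPM in control cells, a ratio of 1.61. The wound-inducible Krt6a was at 2403 CPM in diabetic and 2580 CPM in control cells, Krt6b at 2526 and 2821.5 CPM, and Krt13 at 2063 and 2092 CPM in the same order, and none of these passed the rule over all cells. Krt19, a type I keratin without a tail domain, was at 3592 CPM in diabetic and 3414 CPM in control Conj cells. Krt7 in the same cells was at 625 CPM in diabetic and 596 CPM in control cells, Krt16 at 155 and 112 CPM, and Krt8, a keratin of simple epithelia, at 87.4 and 106 CPM in the same order. In Squam cells Krt80 was at 797 CPM in diabetic and 647 CPM in control cells, and Krt78 at 220.05 and 215 CPM in the same order. None of these 6 was called in the label where it was highest.

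Of 13 other keratins measured in Basal cells, 5 were lower and 2 higher in diabetic cells, with a median log2 ratio of -0.51 against 0.0069 for all genes. Krt6a was at 35.5 CPM in diabetic and 84.3 CPM in control Basal cells, and Krt6b at 14.8 and 46.2 CPM in the same order. Krt13 was at 13.1 CPM in diabetic and 29.7 CPM in control Basal cells. All 3 were called lower there, where 2.38% of genes were. Krt6b was also called lower in LSC, TAC1 and TAC2 cells, with ratios of 0.620, 0.532 and 0.610 in that order. Krt13 was also called lower in TAC1 cells, with a ratio of 0.635, and Krt6a was called in no other label. In Immune cells, which should make none of them, Krt6a had 1 UMI in diabetic and 8 UMIs in control cells, at 31.8 CPM (0.806 to 177) and 83.3 CPM (35.9 to 164). Krt6b had 3 UMIs in diabetic and 8 UMIs in control cells, and Krt13 1 and 11 UMIs in the same order. These counts are too few to set a level against which the Basal cells could be read, and the part of RNA from other cells in the difference was not tested.

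Proteins that anchor or bind keratin filaments showed no call over all cells. All 21 listed genes were measured, with a median log2 ratio of -0.063, against 0.066 for all measured genes. Of all measured genes 8.78% were called over all cells, so no call among 21 genes is not read as a trait of the list. The largest were Sfn, the 14-3-3 sigma protein of stratified epithelia, at 1024 CPM in diabetic and 1358 CPM in control cells, Dsp at 941 and 952 CPM, and Col17a1, a hemidesmosome collagen, at 711 and 586 CPM in the same order. Within labels, where genes were named after their values were seen, Eppk1, a plakin that binds keratin, was called higher in LSC cells, at 125 CPM in diabetic and 65.2 CPM in control cells. It was 1 of 19 measured genes of the list there, where 2.63% of all genes were called higher. In Squam cells 2 of 20 measured genes of the list were called lower, where 7.75% of all genes were. These were Sfn, at 299 CPM in diabetic and 540.2 CPM in control cells, and the hemidesmosome integrin gene Itgb4, at 5.49 CPM in diabetic and 9.15 CPM in control cells.

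Of 30 listed transcription factors that act on keratin genes, 2 were called higher over all cells and none lower, with a median log2 ratio of 0.067. This is near the background, where 5.98% of all measured genes were higher and the median was 0.066. Ovol2, a repressor that keeps epithelial identity, was at 20.9 CPM in diabetic and 13.5 CPM in control cells. Cebpd was at 18.9 CPM in diabetic and 12.4 CPM in control cells, and in LSC cells, where Krt14 was highest, at 87.3 and 56.9 CPM in the same order. Pax6, the eye regulator that acts on the Krt12 promoter, was at 480 CPM in diabetic and 405 CPM in control cells, a ratio of 1.18 that did not pass the rule. Klf4, a factor of epithelial differentiation, was at 814 CPM in diabetic and 748 CPM in control cells, and Elf3, an epithelial ETS factor, at 403 and 442 CPM in the same order. Klf6, also named after its values were seen, was called higher in Basal, TAC1 and TAC2 cells, and in TAC1 cells it was at 35.6 CPM in diabetic and 17.5 CPM in control cells. Chosen in the same way, Cebpb was called lower in Squam cells, at 16.1 CPM in diabetic and 28.04 CPM in control cells, and Smad3 lower in Conj cells, at 5.11 and 9.63 CPM in the same order. Ovol1 was called higher in Conj cells, at 60.05 CPM in diabetic and 38.1 CPM in control cells. In Basal, TAC1 and TAC2 cells 2, 1 and 2 of the 30 factors were higher, where 2.63%, 1.7% and 2.21% of all genes were. In LSC cells 1 was higher, where 2.63% of all genes were, and in Wing cells 1, where 3.93% were. In Squam cells 1 was lower, where 7.75% of all genes were. In Conj cells 2 were higher and 1 lower, where 2.52% and 1.95% of all genes were. Counts this small are not read as a trait of the list.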

How the data were processed

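Cells were profiled with a droplet 3′ kit. The authors deposited 1 matrix of raw counts, the whole number of UMIs of each gene in each cell, and a table with each cell's group and label. Cell Ranger 5.0.0, Seurat 4 and the mm10 build are named in the submitters' processing notes; how reads that fit several genes were treated is not given in the sources used here. All deposited cells were kept, and 0 columns of per-sample values were left unused. Counts were summed per label and library and divided by the total. Intervals are exact Poisson for levels, exact conditional binomial for ratios and Clopper-Pearson for shares, and cover counting error only. Shares of cells were taken after thinning to 5000 UMIs, which left out 264 diabetic and 486 control cells. The script was tested on simulated data. With 1 library a group, no test was made. The 4 keratins and the gene lists were chosen with earlier results of these data known. Other keratins of at least 100 CPM in a label, and of the other lists the genes called over all cells and the 3 with the highest level, were named; the remaining names were chosen after their values were seen. Alternatives were median-of-ratios scaling, a total without the keratins, minimums of 10 and 200 counts, leaving out likely doublets (the 8% of cells with the highest Scrublet score, 706 diabetic and 769 control cells) or cells over 10% mitochondrial counts, equal cell weights, thinning, clusters made without keratin genes, and the same label weights. Leaving out cells under 5000 UMIs, shared barcodes, or the 10 cells with most UMIs of a keratin was added after seeing the data. Clusters and doublet scores came from scanpy 1.11.5 with leidenalg 0.10.2 and scikit-learn 1.9.0, and all else from scipy 1.17.1, numpy 2.4.6 and pandas 2.3.3 under Python 3.11.15.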

Additional observations from a re-analysis of the deposited data

Results flagged for a closer look

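Krt14 had opposite directions in different labels. Its log2 ratio of diabetic over control cells was 0.60 in Wing cells and -0.26 in Squam cells. In Conj cells it was 1.23, again opposite to the -0.26 of Squam cells. The Wing value fell short of the rule under other settings, at 0.55 with median-of-ratios scaling and 0.23 with equal weight for every cell. In Squam cells 7.75% of all measured genes were called lower and 1.79% higher. The Krt15 log2 ratio was 0.69 in TAC1 cells and -0.36 in LSC cells. The LSC value was 0.093 with clusters made without keratin genes. The TAC1 value was 0.50, short of the rule, without the 10 cells with most Krt15 UMIs in each library. With 1 library per group these differences between labels were not tested.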

How the results depend on the processing

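No paired analysis was possible because each group is 1 pooled library. Over all cells the log2 ratio of Krt14 was 0.84. It was 0.77 with median-of-ratios scaling, 0.61 after thinning, 0.60 with equal weight for every cell and 0.34 with the same label weights, where the call ended. The log2 ratio of Krt5 was -0.045; it was -0.12, -0.050, -0.058 and 0.021 under those settings in that order, -0.062 without likely doublets and -0.040 without its top 10 cells. Krt12 was at -0.016, and at -0.090, -0.0013, -0.0072 and 0.073 in that order, and -0.021 without likely doublets. Krt15 was at 0.039, and at -0.035, 0.096, 0.091 and 0.090 in that order, 0.051 without likely doublets and 0.052 without its top 10 cells. The direction of Krt5, Krt12 and Krt15 over all cells thus changed with the setting. Thinning, which leaves fewer UMIs, gave 373 genes higher and 243 lower, against 828 and 387 with all UMIs. Of 280 values per keratin, epithelial label and setting, 11 crossed the rule of size and 7 changed sign, with 0 sign changes where the rule was passed. The cause of these changes was not tested. A single library per group leaves animal, pool and library differences inside every ratio. Krt5 and Krt12 UMIs were found in Immune cells too, and their source was not tested.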

Other observations

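LSC cells grouped by their Krt14 UMIs of 5000 differed in other genes too. Gpha2, a listed LSC marker, was at 216 CPM in diabetic and 609 CPM in control LSC cells with 0 or 1 Krt14 UMI. In those with 10 to 49 Krt14 UMIs it was at 2435 CPM in diabetic and 4130 CPM in control cells. Cells with little Krt14 thus held less Gpha2 in both libraries. They held more Krt15, at 18592 CPM in diabetic and 22401 CPM in control cells with 0 or 1 Krt14 UMI, against 5911 CPM in diabetic and 6182 CPM in control cells with 10 to 49. These groups hold 22 diabetic and 31 control cells at 0 or 1 Krt14 UMI, and 215 diabetic and 95 control cells at 10 to 49.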
